A study of Mus musculus with 6 samples.

Results

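The respiratory chain of mouse bone marrow neutrophils is described here through 101 genes chosen by name: those whose symbols begin with Nduf and a subunit letter and digit, the Sdh genes, and those that begin with Uqcr, Cox4 to Cox8, Atp5, mt-Nd, mt-Co, mt-Cyb or mt-Atp, with 6 pseudogenes marked -ps left out. The annotation writes mt-Cyb as mt-Cytb. They are 101 of the 41388 genes listed, 13 of them encoded in the mitochondrial genome and 88 in the nucleus. The neutrophils came from C57BL/6 mice, had taken up DiBAC4(3) at 250 nM, an anionic dye of membrane potential which enters and brightens in depolarized cells, and had been stimulated with 100 nM of the calcium ionophore ionomycin. All groups share the dye, the ionophore and the sort. Between 2 and 4 minutes after stimulation, 20000 cells were sorted as depolarized and 20000 as polarized. Each population has 3 libraries, and a depolarized and a polarized library share each of 3 replicate codes, called pairs A, B and C in the order of their codes. The sort sets the groups by the potential that the dye reports, and no unstimulated or unsorted library was analysed here. For age and number of mice per library, nothing was found in the sources used here.

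The respiratory chain sits in the inner mitochondrial membrane. Complex I takes electrons from NADH and complex II from succinate, coenzyme Q carries them to complex III, cytochrome c carries them to complex IV, which reduces oxygen, and complex V uses the proton gradient that complexes I, III and IV build to make ATP. Mitochondrial DNA encodes a few membrane core subunits of complexes I, III, IV and V, whereas every subunit of complex II and all other subunits are made from nuclear genes and imported. Neutrophils are known for few mitochondria and for a reliance on glycolysis, and their mitochondria are known to hold a membrane potential.

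Library totals ran from 16904969 to 20381489 counts. The members took 0.56% to 0.694% of all counts, and all mitochondrial genes, rRNA included, 0.547% to 0.743%. All 10 mature neutrophil markers had counts. In counts scaled to the library total (CPM) they summed to 183000, 195000 and 223000 in polarized cells of pairs A, B and C. In depolarized cells the sums were 183000, 165000 and 163000 CPM. The median log2 differences of these markers were 0.09, -0.15 and -0.5, and 3 of the 10 were higher in all 3 pairs, against 12.9% of all genes tested. Early neutrophil and progenitor markers were lower in depolarized cells in 11 of 11 tested genes, 9 of them past the test, and their summed level was 2780, 5200 and 5490 CPM in polarized cells of pairs A, B and C against 1650, 2390 and 1120 CPM in depolarized cells. Among cell cycle markers 5 of 10 tested genes were called lower, with sums of 26.9, 24.8 and 55.0 CPM against 13.4, 12.7 and 15.2 CPM. Over all genes tested 0.241% were called lower, and 12.1% were lower in all 3 pairs. These calls rest on the replicate block and the scaling: 0 of all genes were called lower without the block, 6 under library totals and 7 with the gene length trend removed, against 24 as fitted. None of the markers of these 2 lists was at 0 counts. Of the other marker lists, for monocytes, eosinophils and basophils, B, T and NK, erythroid cells and platelets, 1 gene was called, Nkg7, lower. At an unadjusted p under 0.05 (edgeR) stood 7 of 11 tested monocyte and macrophage genes and 5 of 5 of eosinophils and basophils. For B cells it was 2 of 6, for T and NK cells 1 of 3 and for erythroid cells 0 of 5, beside 6.58% of all genes. Of the monocyte and macrophage genes 5 were lower and 3 higher in all 3 pairs, and of eosinophils and basophils 2 and 2. The part of this difference in cell makeup in the results below was not tested, and fewer cells of a type and less RNA per cell cannot be told apart in bulk libraries.

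Before the comparison, the mitochondrial members need a look at their sequence, since 5 of the 13 (mt-Co2, mt-Co3, mt-Atp6, mt-Atp8 and mt-Nd4l) were listed at 0 counts in all 6 libraries and mt-Nd3 had 6 counts in total. These 5 encode catalytic or membrane core subunits of complexes I, IV and V, on the same genome as mt-Co1, which had 51414 counts. For each member, the share of 50-base windows of its main transcript that also occur in transcripts of other genes was counted in GENCODE M21 (GRCm38). It was 100% for mt-Co2, 99.9% for mt-Co3, 99.5% for mt-Atp6, 98.8% for mt-Nd4l and 98.0% for mt-Nd3. The windows lie in a run of unprocessed pseudogenes on the minus strand of chromosome 1, nuclear copies of mitochondrial DNA. Gm28661 at chr1:24614885-24615565 matches the first 681 bases of mt-Co2 (MT, 7013 to 7696, plus strand) with 0 mismatches, Gm28437 matches 783 bases of mt-Co3, Gm10925 matches 678 bases of mt-Atp6 and Gm10222 matches 294 bases of mt-Nd4l, also with 0 mismatches. These copies held 0 or 1 count each. A stretch of 60 bases from position 311 of mt-Co2 is shown because it reads the same in the gene and in its copy, so that a read from it has more than one equal place in the genome:
mt-Co2 and Gm28661: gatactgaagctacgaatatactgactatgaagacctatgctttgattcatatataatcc
For mt-Atp8 no window occurred in another annotated transcript, and it too was listed at 0. Only annotated transcripts were searched, so a copy of mt-Atp8 outside them would not be found. On the mitochondrial genome mt-Atp8 starts between mt-Co2 and mt-Atp6, and the stretch of chromosome 1 between Gm28661 and Gm10925 was not compared. The sources used here do not say how reads with several equal matches were handled, so the 0 counts of these genes are not read as absence of the messages.

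The first 876 bases of mt-Nd4 match Gm28439 with 0 mismatches and 62.2% of its windows were shared, but it held 14075 counts. Gm29216 matches 492 bases of mt-Co1 with 98.78% identity, and 51.1% of the mt-Co1 windows were shared. How reads from the shared stretches of these 2 genes were counted is not given. The pair mt-Nd3 and Gm28438 (chr1:24612775-24613119) differs at 1 base of 345, T3C, counted from 1 at the first base of mt-Nd3, and is printed with that base in capitals because the counts of the 2 genes split by pair:
mt-Nd3: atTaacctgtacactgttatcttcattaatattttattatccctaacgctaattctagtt
Gm28438: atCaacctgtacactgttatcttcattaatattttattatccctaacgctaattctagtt
mt-Nd3 had 4 counts in the polarized and 2 in the depolarized library of pair A and 0 in the 4 libraries of pairs B and C. Gm28438 had 0 counts in both libraries of pair A, 8 each in the polarized libraries of B and C, and 14 and 6 in their depolarized partners. The split followed the replicate code and not the sorted population, and was singled out after its values were seen.

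Nuclear members also share windows with other genes. Of the nuclear members tested below, 14 shared at least 25% of their windows and had a median of 15.3 RPKM (CPM per kilobase of listed gene length), and the other 61 had a median of 43.6 RPKM. The 14 ranged widely: Ndufa13, an accessory subunit of complex I, shared 28.5% and was listed at 147 RPKM, and Atp5f1, of the side stalk of complex V, shared 38.7% and was listed at 64.8 RPKM. Shared windows include those of genes that overlap a member at the same place. Of the 343 shared windows of Ndufa13, 326 were those of Tssk6, and all 208 of Ndufb6 were those of Smim27. Both are genes of the opposite strand that overlap the member. Atp5l, a membrane subunit of complex V, shared 84.8% and was listed at 9.13 RPKM. Cox7c, a small subunit of complex IV, shared 53.0% and was listed at 1.97 RPKM, and Ndufs3, a core subunit of complex I, shared 39.7% and was listed at 1.21 RPKM. Both stood far below the medians of the tested nuclear members of complexes IV and I, 75.2 and 22.8 RPKM. Atp5g2, one of 3 genes for the c-ring of complex V, shared 87.4% and had 5 counts in all libraries together. The listed levels of such members are uncertain.

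**Figure D1:**
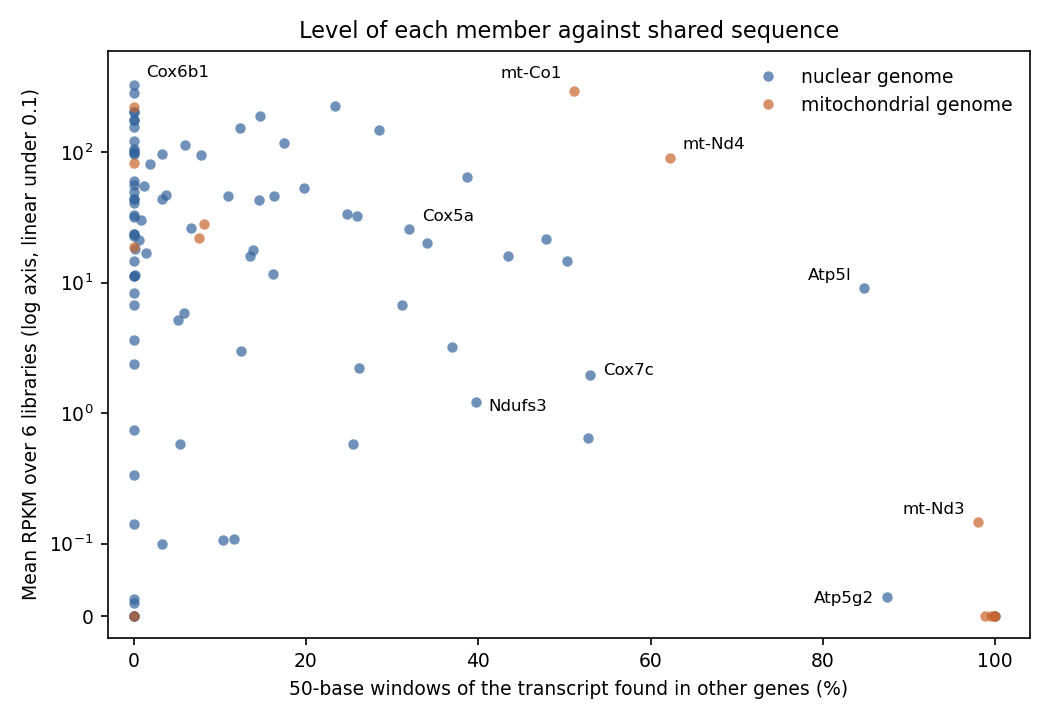
Mean level of each of the 101 members over 6 libraries (RPKM, log axis that is linear under 0.1) against the percent of its 50-base transcript windows found in other genes. Nuclear members are blue and mitochondrially encoded members orange; mt-Co1 and mt-Nd4 keep high levels at 51.1% and 62.2% shared, and the mitochondrial genes near 100% lie at or near 0.

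Per length, 18 members had a mean of at least 100 RPKM. Cox6b1, a complex IV subunit, stood at 317 ± 53.1 RPKM in polarized and 335 ± 25.6 in depolarized cells (mean ± SD, n = 3 each). mt-Co1, the catalytic core of complex IV, stood at 317 ± 61.7 and 276 ± 11.3 RPKM. Ndufa3 was the highest member of complex I at 286 ± 34.3 and 284 ± 12.6 RPKM, and mt-Cytb, the cytochrome b core of complex III, was the highest of its complex at 239 ± 37.8 and 205 ± 15.3 RPKM. In complex V the highest was Atp5c1, the central stalk subunit gamma, at 111 ± 16.5 and 118 ± 0.435 RPKM. Within each of these 5 genes the 2 populations differed by less than the sum of their SDs. The ranks rest on the listed gene length, which can exceed that of the main transcript. Atp5c1 is listed at 1908 bases and Atp5e, also of complex V, at 1756, whereas their main transcripts have 1166 and 421. The ranks also take mt-Co2, mt-Co3, mt-Atp6, mt-Atp8 and mt-Nd4l at 0 and mt-Nd3 at 6 counts. Since these counts are not read as absence, the highest members of complexes I, IV and V are the highest only among the genes that held counts.

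Of the 101 members 82 had enough counts to be tested, 75 nuclear and 7 mitochondrial. With edgeR's quasi-likelihood test, replicate code as a block and Benjamini-Hochberg adjustment over 9971 genes, 0 of 82 were called higher and 0 called lower in depolarized cells. Over all genes tested 0.0802% were called higher and 0.241% lower. At an unadjusted p under 0.05 stood 4 members (Ndufa5, Ndufc2, Ndufv3 and mt-Nd6, all lower), which is 4.88% of those tested against 6.58% of all genes. DESeq2 called 0 members as well, with 3 at an unadjusted p under 0.05. The smallest adjusted p of a member was 0.436. Standard errors of the log2 fold changes ran from 0.17 to 0.65 with a median of 0.19, and the 61 members with a mean of at least 20 CPM had errors of at most 0.23. Fitted changes as large as that of Ndufa5 given below (-1.13 ± 0.39) did not pass the test, so the limit of detection lay well above 1 SE.

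The libraries of the 2 populations did not overlap, on scaled values, in 6 members that were lower in depolarized cells (mt-Nd2, mt-Nd6, Ndufa5, Ndufb4, Uqcrb and Cox7b). That is 7.32% of the tested members, against 4.54% of all genes tested. In the other direction 0 members did not overlap, against 4.59% of all genes. The difference had 1 sign in all 3 pairs in 10 members: 9 were lower (11% of those tested, against 12.1% of all genes), namely the first 4 of those genes with Uqcrb, Cox7b, Ndufc2, Ndufv3 and Atp5g3, and 1 was higher, Atp5b, against 12.9% of all genes. Apart from the share without overlap among lower genes, these shares were at or below the background.

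The pairs disagreed in direction. Of 75 nuclear members 62 were higher in depolarized cells in pair A, 27 in pair B and 7 in pair C, with median log2 differences of 0.17, -0.09 and -0.33. Over all genes tested the medians were -0.01, -0.00 and 0.01. Of the 82 tested members 63 were above 0 in pair A and below 0 in pair C, and 4 did the opposite. Within a pair the members with at least 20 CPM moved as a tight block. For the 55 nuclear ones, the middle of the distribution (between the lower and the upper quartile) was 0.19 (pair A), 0.21 (B) and 0.20 (C) wide in log2 units. The 3522 genes at that level had widths of 0.44, 0.39 and 0.58. The 6 mitochondrial members at that level spanned 0.08, 0.07 and 0.10. All 4 members that did the opposite lay below that level, and short genes of that level were not set beside the members. The fitted median over pairs was -0.06 for nuclear members (SD of the 3 pair medians 0.25) beside -0.00 for all genes, and so lay within the spread between pairs.

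**Figure D2:**
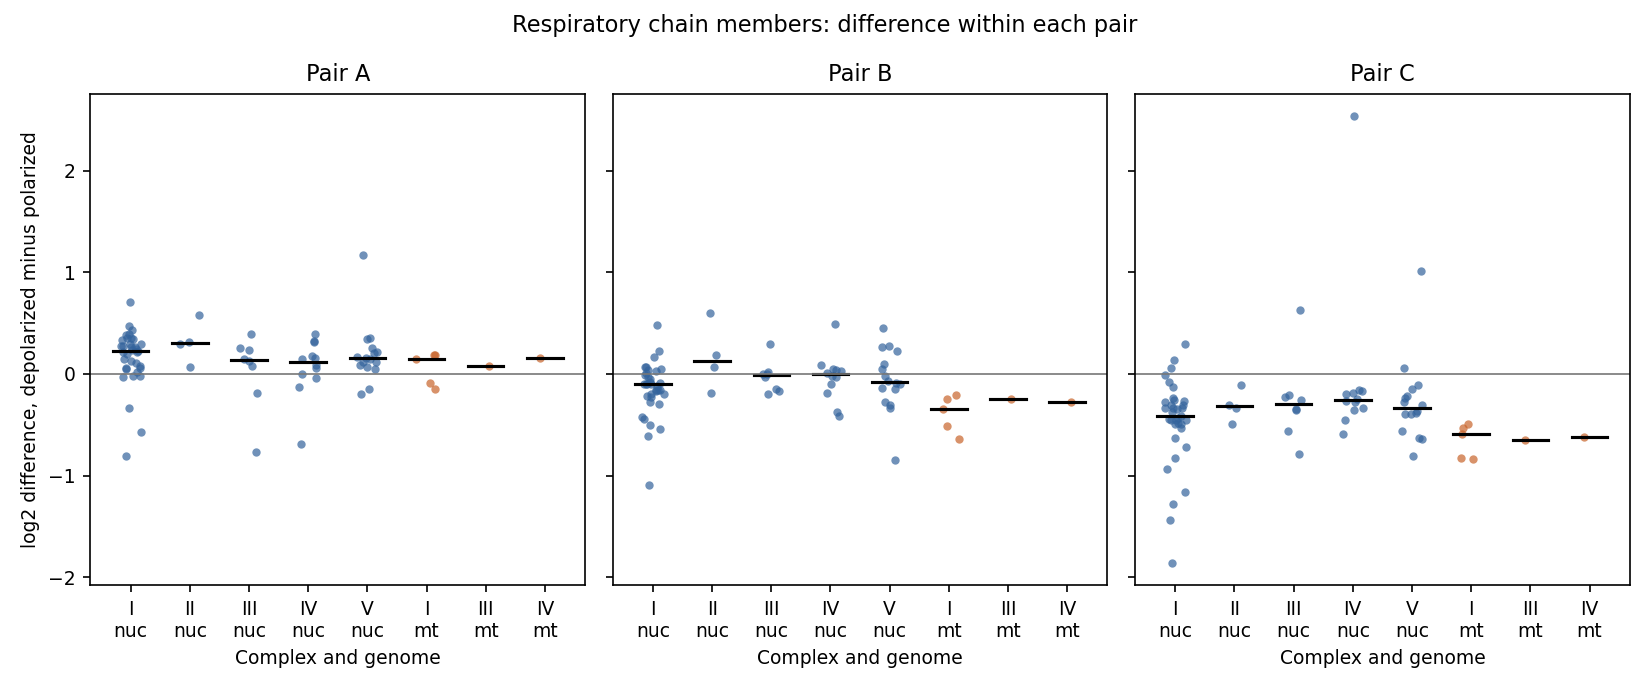
Log2 difference, depolarized minus polarized, of each of the 82 tested members in pairs A, B and C, by complex (I to V) and by genome (nuc, nuclear, blue; mt, mitochondrial, orange), with black bars for medians. Most points lie above 0 in pair A (67 of 82) and below 0 in pair C (75 of 82), and Cox5a is the point at 2.54 in pair C.

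Gene length and scaling moved with that pattern. Nuclear members are short, with a median listed length of 1334 bases against 3572 over all genes tested, and the 1511 other tested genes under 1500 bases had a median of 0.11 in pair A, -0.00 in B and -0.20 in C, in the same order as the members. With each library's trend on gene length removed, the medians of nuclear members were 0.05, -0.06 and 0.00. With library totals in place of TMM factors (chosen after seeing the data) they were 0.11, -0.05 and -0.10, while the median of all genes moved to -0.07, 0.04 and 0.24. Relative to the median of all genes the order of the pairs was thus the same under both scalings, and with the length trend removed pair C no longer stood below 0.

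The 2 genomes were then compared within pairs, where the scaling between libraries cancels. Mitochondrially encoded members had median log2 differences of 0.15 in pair A, -0.28 in B and -0.62 in C, with 5, 0 and 0 of 7 above 0, and a fitted median of -0.27 (SD of the 3 pair medians 0.38). Set against the nuclear members of the same pair their median stood at -0.03, -0.20 and -0.29 on the log2 scale. With the length trend removed the differences between the genomes were -0.08, -0.24 and -0.23, and they kept their sign in every pair. The same is seen in plain counts: the share of mitochondrial messages in all member counts went from 15.3% in polarized to 14.6% in depolarized cells of pair A, from 17.9% to 15.3% in B and from 17.2% to 14.5% in C, lower in 3 of 3 pairs. Their summed level was 856, 1150 and 1200 CPM in polarized cells and 899, 966 and 907 CPM in depolarized cells, so that the spread lay mostly among the polarized libraries and the ranges overlapped. Nuclear members summed to 4750, 5260 and 5740 CPM against 5250, 5360 and 5330 CPM. The 3 depolarized libraries lay close together in both sums, within the range of the polarized ones. No test was made of these sums, since the genes in them were chosen with results known. The mitochondrial shares and sums rest almost wholly on the 7 tested members, as mt-Nd3 had 6 counts and the other 5 were listed at 0. They do not give the level of all mitochondrial messages. Beside these values, the summed early neutrophil markers differed most in pair C (5490 against 1120 CPM) and least in pair A (2780 against 1650 CPM), whereas the median log2 difference of the 11 tested markers was -2.57 in pair A, -3.75 in B and -3.38 in C. The part of these cells was not tested.

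**Figure D3:**
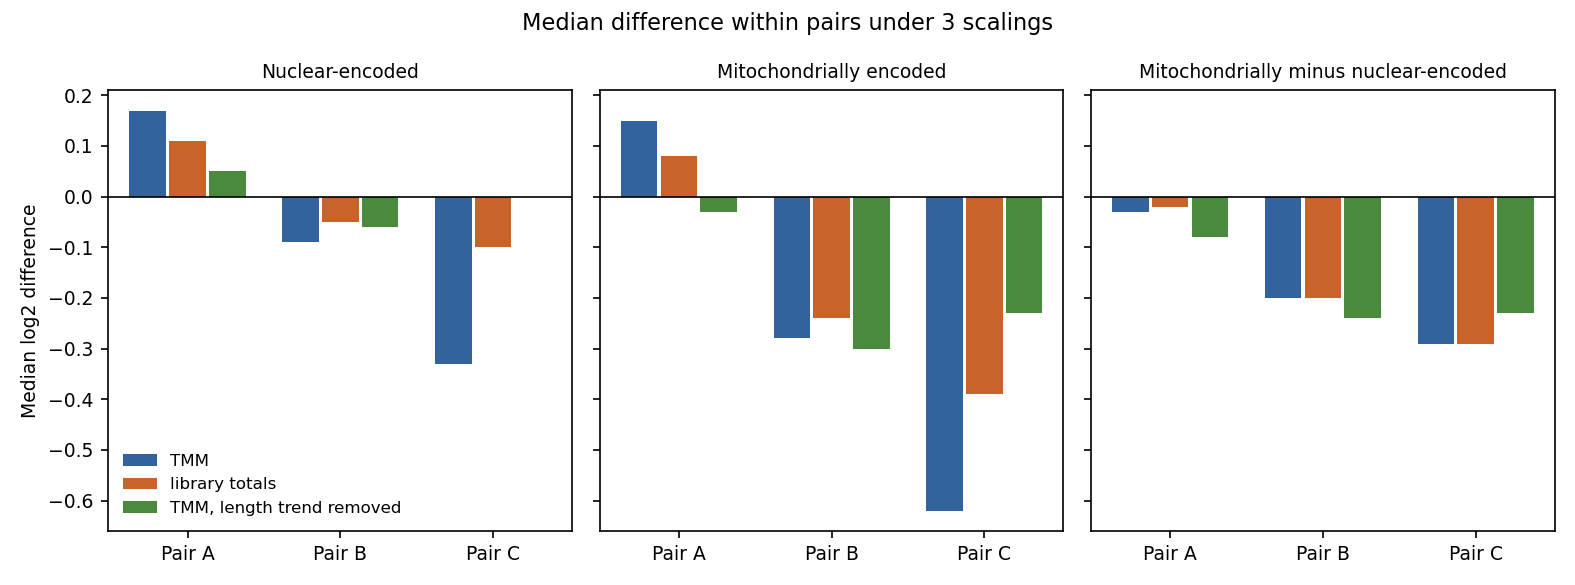
Median log2 difference (depolarized minus polarized) in pairs A, B and C for nuclear members, mitochondrial members and the first median taken from the second, under TMM, under library totals and with the gene length trend removed. The nuclear median of pair C goes from -0.33 to 0.00 with the trend removed. The gap between the genomes is below 0 in each bar. Scaling between libraries cancels in this gap, so its bars under library totals repeat those under TMM and add no evidence. In pair A the gap is -0.03 under TMM and -0.08 with the trend removed.

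**Figure D4:**
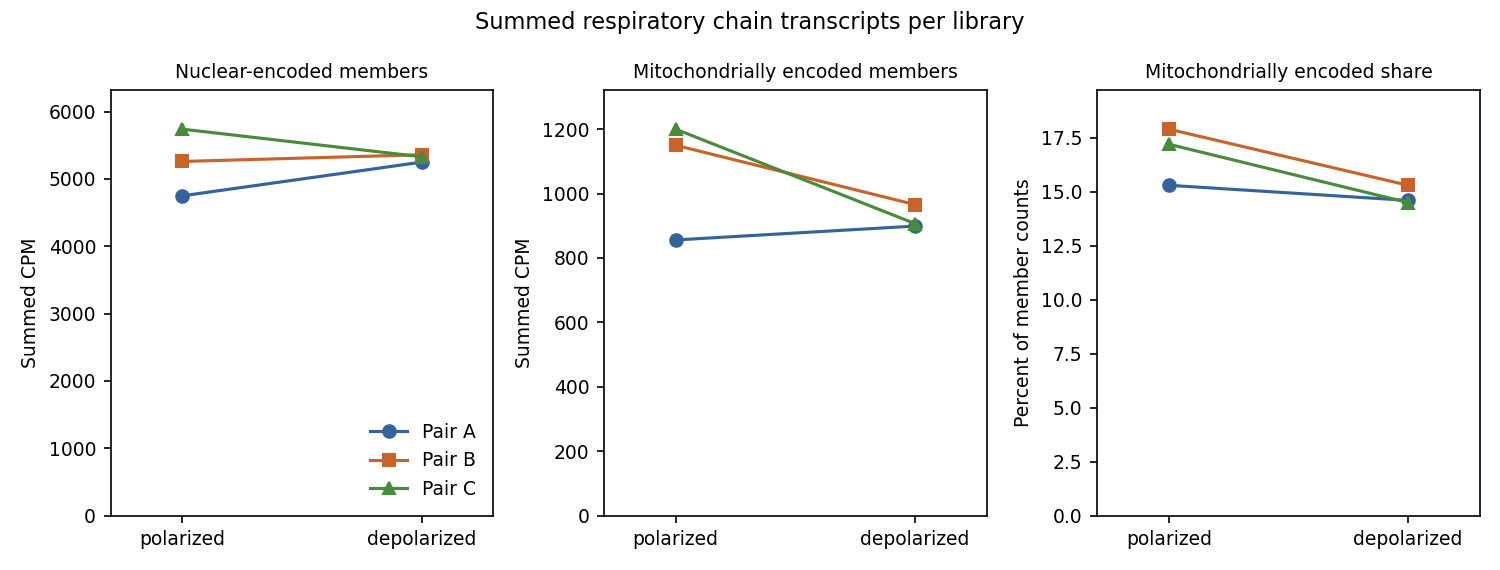
Summed CPM of nuclear and of mitochondrially encoded members, and the mitochondrial share of all member counts in percent, in each library; lines join the libraries of a pair. The share is lower in the depolarized library of all 3 pairs (15.3% to 14.6%, 17.9% to 15.3% and 17.2% to 14.5%). Mitochondrial values rest almost wholly on the 7 tested members, since the others were listed at or near 0.

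The ribosomal RNAs of the same genome are set beside the messages. mt-Rnr2, the large rRNA, held 74.1% to 81.3% of mitochondrial counts and stood at 4450, 4170 and 5860 CPM in polarized and 4290, 4510 and 5680 CPM in depolarized cells. Its pair differences were 0.01, 0.07 and -0.27, and mt-Rnr1 had -0.14, -0.03 and -0.10. Neither was called (adjusted p = 1 each, edgeR), and whether they differ from the messages was not tested.

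The 5 tested mitochondrial messages of complex I had the lowest median, -0.32 (SD of pair medians 0.37). mt-Nd6, a membrane arm subunit and the only member encoded on the minus strand of the mitochondrial genome (MT, 13552 to 14070), had 10.1, 12.6 and 11.5 CPM in polarized and 8.73, 8.29 and 7.45 CPM in depolarized cells. The groups did not overlap, and the fitted log2 change was -0.55 ± 0.24 (SE; unadjusted p = 0.0363, adjusted p = 0.708, edgeR). mt-Nd1 had -0.40 ± 0.20, mt-Nd2 -0.32 ± 0.19, mt-Nd5 -0.21 ± 0.20 and mt-Nd4 -0.17 ± 0.18, all membrane arm subunits that take part in proton pumping. mt-Nd2 had 31.0, 30.5 and 33.7 CPM in polarized against 27.8, 24.7 and 27.2 CPM in depolarized cells, again without overlap. In complex III mt-Cytb had 223, 296 and 300 CPM against 226, 255 and 223 CPM and a log2 change of -0.27 ± 0.19. In complex IV mt-Co1 had 381, 525 and 562 CPM against 409, 443 and 429 CPM and -0.25 ± 0.19. Both overlapped between the groups, with the lowest polarized value in pair A. No tested mitochondrial member was above 0 in the fit, and none passed the test.

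In nuclear complex I the 28 accessory subunits had a median log2 change of -0.13, within the spread of the pairs (SD of pair medians 0.33). Core subunits include those with the flavin and iron-sulfur clusters that take electrons from NADH to coenzyme Q. Among the core subunits the log2 changes were 0.23 ± 0.21 for Ndufv1, which binds the flavin, -0.09 ± 0.19 for Ndufv2 and -0.05 ± 0.18 for Ndufs1. They were -0.04 ± 0.35 for Ndufs3, 0.07 ± 0.18 for Ndufs7 and 0.10 ± 0.19 for Ndufs8. Of these 6, 5 lay within 1 SE of 0. Ndufb5, a membrane arm subunit, was with Ndufv1 the highest of the complex, at 0.15 ± 0.20.

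The lowest values of any member were those of 2 accessory subunits of complex I. Ndufa5 (chr6:24518666-24528013, minus strand), a matrix arm subunit, had 2.48, 3.70 and 3.93 CPM in polarized and 1.86, 1.72 and 1.18 CPM in depolarized cells, from 188 and 91 counts in all. Every polarized library stood above every depolarized one. Its log2 change was -1.13 ± 0.39 (pairs -0.33, -1.09 and -1.86; unadjusted p = 0.0101, adjusted p = 0.436, edgeR). Ndufc2 (chr7:97400003-97407802, plus strand), of the membrane arm, had 5.74, 8.75 and 8.36 CPM against 3.68, 7.40 and 3.55 CPM. It was lower in each pair, although the depolarized library of pair B stood above the polarized one of pair A, and its log2 change was -0.76 ± 0.29 (adjusted p = 0.556). Ndufv3, which attaches to the flavin module, had 54.4, 81.4 and 65.5 CPM against 51.4, 59.3 and 39.8 CPM and -0.49 ± 0.20 (adjusted p = 0.631). In all 3 genes the difference was largest in pair C, the pair in which the median member was lowest as well.

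**Figure D5:**
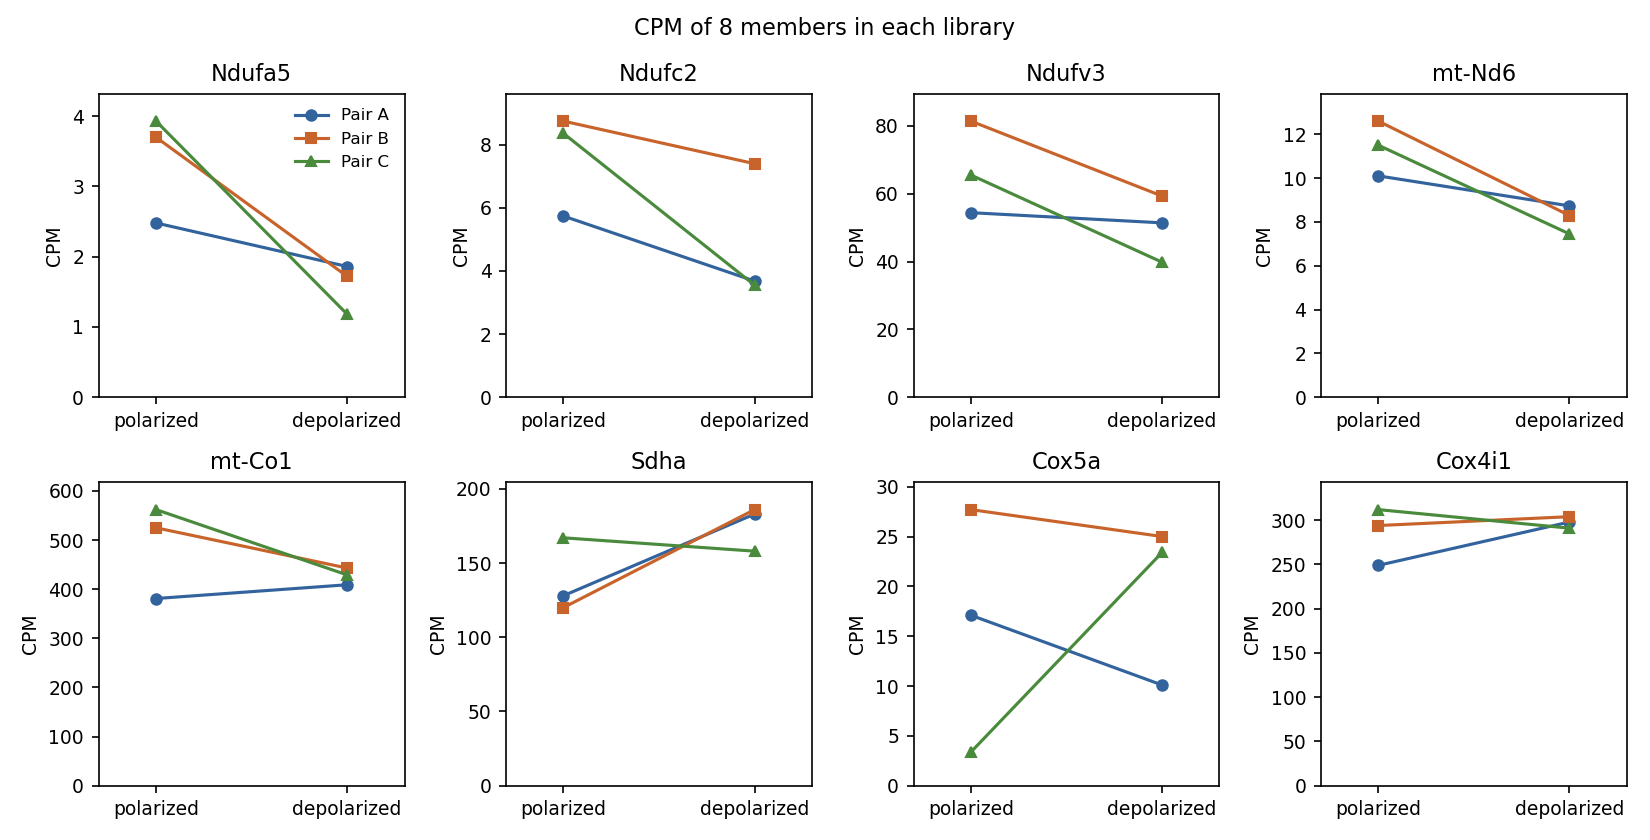
CPM of 8 members in each library, polarized on the left and depolarized on the right of each panel, with a line for each pair. Ndufa5, Ndufc2, Ndufv3 and mt-Nd6 are lower in the depolarized library of all 3 pairs, Sdha is higher there in pairs A and B, Cox5a is lowest in the polarized library of pair C, and Cox4i1 lies between 249 and 312 CPM.

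Complex II, which is also succinate dehydrogenase of the tricarboxylic acid cycle, had the highest median of the 5 complexes, 0.07 (SD of pair medians 0.32), with pair medians of 0.30, 0.13 and -0.32. Sdha (chr13:74322254-74350280, minus strand), the flavin subunit, had 128, 120 and 167 CPM in polarized and 183, 186 and 158 CPM in depolarized cells. It was higher in pairs A and B (0.58 and 0.60) and lower in pair C (-0.31), and the fitted change was 0.29 ± 0.20 (adjusted p = 0.973, edgeR). Without pair C it was 0.59 with an adjusted p of 2.47e-05, the 1 member called in that fit, where 4.95% of all genes tested were called higher; under the other alternatives its adjusted p was 0.818 or higher. Sdhb, the iron-sulfur subunit, had 114, 130 and 146 CPM against 133, 152 and 136 CPM and 0.05 ± 0.18. The membrane anchors were Sdhc with -0.20 ± 0.19 and Sdhd with 0.09 ± 0.18; Sdhd had 209, 220 and 218 CPM against 247, 237 and 236 CPM, without overlap in CPM. In scaled values, which set pair C lower, the Sdhd libraries overlapped.

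Nuclear complex III had a median of -0.06 (SD of pair medians 0.22). Uqcrb, a small subunit next to cytochrome b, was lowest at -0.39 ± 0.22, with 14.1, 14.4 and 18.3 CPM against 11.8, 12.9 and 12.3 CPM. Uqcrc1, a core-like subunit that faces the matrix, was highest at 0.11 ± 0.19 and was followed by Uqcrq at 0.00 ± 0.18. Uqcrfs1, the Rieske iron-sulfur subunit, had 16.0, 18.9 and 10.3 CPM against 8.98, 19.4 and 18.8 CPM. Its fitted change of -0.04 ± 0.25 joined a difference of -0.77 in pair A with 0.63 in pair C.

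Uqcrfs1 was among 4 tested members that were below 0 in pair A and above 0 in pair C, with Ndufb2, Cox5a and Atp5s; they were picked out after their values were seen. Cox5a, the subunit of complex IV that faces the matrix, was the extreme case. In polarized cells it had 17.1 (A), 27.7 (B) and 3.37 CPM (C), and in depolarized cells 10.1, 25 and 23.4 CPM, from 330, 472 and 66 counts against 205, 479 and 396. The low value was that of polarized cells in pair C, and the other 5 libraries lay between 10.1 and 27.7 CPM. The fitted log2 change was 0.44 ± 0.42, and without pair C it was -0.43 (adjusted p = 0.0937; 0.105 or higher under the other alternatives), so pair C decides its sign. Of the windows of Cox5a 32.0% also occur in other transcripts, mostly those of Gm26631, a transcript of the opposite strand whose exons overlap its 3′ part; whether counting used strand is not given. Gm26631 had 66, 46 and 70 counts against 41, 71 and 53 and did not show the low value. Cyc1, the cytochrome c1 subunit of complex III, falls outside the name rule and had the same signs, with 10.6, 14.7 and 2.80 CPM against 4.61, 12.5 and 9.64 CPM and pair differences of -1.11, -0.27 and 1.52.

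Nuclear complex IV had a median of -0.01 (SD of pair medians 0.19), the narrowest spread of the 5 complexes. Cox6c and Cox7b were its lowest members at -0.32 ± 0.18 and -0.30 ± 0.19, and Cox7c, at 1.97 RPKM, was above 0 at 0.12 ± 0.37 next to Cox5a. Cox7b had 27.1, 30.2 and 26.5 CPM against 23.7, 23.3 and 24.3 CPM, without overlap. Cox4i1, the common form of the largest nuclear subunit, had 249, 294 and 312 CPM against 298, 304 and 291 CPM and a log2 change of 0.00 ± 0.18.

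Several complex IV subunits exist as a common form and as a form of muscle, lung or testis, and the neutrophil libraries held the common forms almost alone. Cox4i2 had 2 counts over the 6 libraries beside 32763 of Cox4i1, a share of 0.0061% (95% exact Clopper-Pearson interval 0.000739% to 0.022%). The share was 0.0576% (0.0231% to 0.119%) for Cox6a2 beside Cox6a1, 0.0971% (0.0576% to 0.153%) for Cox6b2 beside Cox6b1 and 0.288% (0.194% to 0.411%) for Cox7a1 beside Cox7a2. Cox8b had 0 counts beside 12474 of Cox8a, which allows a share of up to 0.0241%. Ndufa4, counted here with complex IV because it belongs there by function, had 5405 counts. Its hypoxia-induced relative Ndufa4l2 had 0, which at that floor allows up to 0.0555% (exact interval up to 0.0682%). Cox7b2 was at 0 beside 2900 counts of Cox7b, which at that floor allows up to 0.103% (exact interval up to 0.127%). Cox7a2l, a related factor in the joining of complexes III and IV, had a log2 change of -0.01 ± 0.18, Cox7a2 of -0.05 ± 0.18, Cox6a1 of 0.00 ± 0.17, Cox6b1 of 0.02 ± 0.18, Cox8a of -0.06 ± 0.17 and Ndufa4 of -0.14 ± 0.18. Of these 6, Cox7a2l included, none was past 1 SE of 0. These limits cover counting error only, and the shares are of counts, not corrected for length.

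Nuclear complex V had a median of -0.07 (SD of pair medians 0.24). The 5 subunits of the catalytic head and central stalk had a median of 0.03 and the 10 tested subunits of the membrane sector and side stalk one of -0.13, each within its spread over pairs (0.21 and 0.27). Atp5a1, the alpha subunit of the head, had 116, 125 and 139 CPM against 140, 155 and 146 CPM and a log2 change of 0.16 ± 0.18. Atp5b, the catalytic beta subunit, had 117, 121 and 125 CPM against 122, 133 and 152 CPM and was the 1 member higher in all 3 pairs, by 0.12, 0.10 and 0.06, with a fitted 0.09 ± 0.17 (adjusted p = 1, edgeR). At the low end were Atp5k, which helps hold the enzyme in dimers, at -0.28 ± 0.20, and Atp5g3 at -0.25 ± 0.19. Atp5s, a factor associated with the enzyme, had the highest fitted value, 0.50 ± 0.62, on 22 and 33 counts. The c-ring, which turns with the proton flow, has 3 genes for the same mature protein: Atp5g3 had 2720 counts, Atp5g1 60 and Atp5g2 5, and Atp5g1 had a log2 change of -0.06 ± 0.65. Of the windows of Atp5g2 87.4% also occur in other transcripts, so its count is uncertain. Atpif1, the inhibitor of the enzyme's reverse reaction, is outside the name rule and had -0.09 ± 0.19.

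Genes that work with the chain were read from lists chosen by function. None of the 11 lists held a called gene in the edgeR fit, and 4 of them held 1 gene each at an unadjusted p under 0.05, beside 0.0802% called higher, 0.241% called lower and 6.58% at that p over all genes tested. The median log2 change was 0.08 for 11 tested assembly factors of complex I, -0.20 for 5 of complex III, 0.03 for 19 of complex IV and -0.08 for 4 of complex V, and the 2 tested factors of complex II had -1.04 and 0.01. The 17 other subunits and carriers had a median of -0.04, the 17 tested tricarboxylic acid cycle genes 0.03, the 10 genes of coenzyme Q synthesis 0.03, the 26 mitochondrial ribosome genes -0.09, the 16 genes of mitochondrial genome upkeep and transcription -0.07 and the 7 regulators -0.04. The median of all genes tested was -0.00, and the pair medians of the cycle genes (0.34, 0.13 and -0.42) and of the ribosomal proteins (0.12, -0.02 and -0.36) had the same order as the members. The same order was seen in the assembly factors of complexes III (0.27, -0.27 and -0.64), IV (0.19, 0.04 and -0.15) and V (0.08, -0.03 and -0.35). The other subunits and carriers had it as well (0.16, -0.03 and -0.33). The remaining lists did not follow that order. The regulators had the opposite one (-0.28, -0.18 and 0.3), coenzyme Q synthesis had 0.15, -0.4 and 0.1, and genome upkeep had 0.03, -0.01 and -0.00. The assembly factors of complex I had 0.21, 0.24 and -0.48, and those of complex II 0.12, -1.23 and -0.5. Ndufab1, an acyl carrier in complex I, had 0.36 ± 0.50, and Cycs, cytochrome c itself, had -0.04 ± 0.48 on 59 and 61 counts. Ppargc1a and Ppargc1b, coactivators of mitochondrial biogenesis, had 5 and 2 counts in all libraries together. Tfam, the packaging protein of mitochondrial DNA, had 1.24, 3.11 and 3.72 CPM against 1.96, 0.938 and 2.43 CPM, and its differences of 0.68, -1.65 and -0.82 had opposite signs.

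Promoters of nuclear members were searched because those with at least 20 CPM moved as a block within pairs. Other tested genes under 1500 bases had pair medians in the same order (0.11, -0.0 and -0.2). A part of promoters in that movement was not tested. RefSeq windows of 250 bases before to 50 after the start (GRCm38.p6) matched 68 of 88 nuclear members by symbol. On either strand, the letters GCGCANGCG of the NRF1 motif, a factor known for respiratory genes, occurred in 30.2% of 63 tested members against 16.46% of the 7471 tested genes with a window and 7.03% of all 27025 genes. The YY1 letters AAGATGGCG occurred in 11.1% of members against 4.23% of tested genes, the ETS letters CCGGAAGT in 7.9% against 10.45% and the SP1 letters GGGGCGGGG in 15.9% against 24.6%. Matches are to letters and are not binding sites. The window of Sdha, which had 3 NRF1 matches, and the first of 2 windows of Ndufa5, which had 1, are shown on the minus strand with the matches in capitals, as the highest member of complex II and the lowest member of all:
Sdha, chr13:74350191-74350490: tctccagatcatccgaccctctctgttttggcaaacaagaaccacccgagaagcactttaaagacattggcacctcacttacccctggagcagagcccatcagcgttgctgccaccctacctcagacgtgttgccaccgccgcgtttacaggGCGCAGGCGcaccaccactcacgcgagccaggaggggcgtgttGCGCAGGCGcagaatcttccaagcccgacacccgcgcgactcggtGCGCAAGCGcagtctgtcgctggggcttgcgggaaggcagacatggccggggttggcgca
Ndufa5, chr6:24527477-24527776: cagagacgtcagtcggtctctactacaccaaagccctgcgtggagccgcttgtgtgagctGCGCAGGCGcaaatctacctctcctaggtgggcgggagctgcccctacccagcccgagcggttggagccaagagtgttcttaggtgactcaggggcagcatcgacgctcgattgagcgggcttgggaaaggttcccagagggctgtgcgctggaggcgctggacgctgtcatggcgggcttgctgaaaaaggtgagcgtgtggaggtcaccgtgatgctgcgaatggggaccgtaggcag
The fitted changes of these 2 genes, 0.29 and -1.13, did not pass the test, and no relation between matches and direction was tested.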

How the data were processed

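RNA of 6 sorted mouse neutrophil libraries was sequenced, 3 polarized and 3 depolarized, grouped by their response label and paired by the replicate code that ends each title. Per the labels' protocols, RNA was isolated with RNeasy and cDNA made with a SMARTer low-input kit. Per the submitters' processing notes, tools were bcl2fastq, STAR (2.0.4b), Subread and featureCounts (1.45), with build GRCm38. The deposited tables hold whole-number counts per gene, which the authors did not normalize, with CPM and RPKM values. The deposited CPM values equal counts scaled to the library total, and the deposited RPKM values equal CPM per kilobase of the listed length (largest difference 7e-10). The sources used here give no strand setting, read length or treatment of reads with several matches. The run label is 1 in the depolarized library of pair B and 2 in the others; its meaning is not given, so it was not used as a batch.

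Totals were 16904969 to 20381489 counts; the detection floor was 3 counts, and intervals cover counting error only. edgeR 4.0.16 (R 4.3.3) was run on the counts: filterByExpr by group (9971 genes), TMM, quasi-likelihood F test with the replicate code as a block (2 residual degrees of freedom), Benjamini-Hochberg adjustment, calls at adjusted p under 0.05. Differences are depolarized minus polarized. Pair differences are log2 CPM with a prior count of 2 after TMM, and overlap of groups was judged on these values. Standard errors are the log2 change divided by the square root of F. Pairing comes from the design text, which describes biological replicate pairs; deviations from group means correlated across genes at 0.075, 0.27 and 0.033 within codes A, B and C, and up to 0.135 across codes. No library was a copy of another (chi-square per degree of freedom of at least 29.1). Nothing says whether pairs come from separate animals, so p-values measure the spread between these libraries.

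Symbols (40254 of 41388 genes) and transcripts came from the reference tables, with GENCODE M21 for shared 50-base windows and RefSeq GRCm38.p6 for promoters. The members and lists were chosen with earlier results of these data known, so no p was computed for a list. Named were all mitochondrial and complex II members, the nuclear core subunits of complex I, Uqcrfs1, catalytic F1 subunits and sets of common and tissue forms. In complexes I, III, IV and V the 2 highest, the 2 lowest and the most abundant member were named as well. One gene of this rule is not reported here. Alternatives were median-ratio factors, nuclear genes only for scaling, library totals (added after seeing the data), no filter, a mean CPM of at least 5, no block, DESeq2 1.42.0, robust dispersion, gene length trend removed, prior count 0.5 and leaving out each pair.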

Additional observations from a re-analysis of the deposited data

How the results depend on the processing

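The count of 0 members called higher and 0 called lower held under median-ratio factors, nuclear genes only for scaling, library totals, no filter, a mean CPM of at least 5, robust dispersion, DESeq2 and removal of the length trend. Leaving out each pair in turn gave 0 to 1 members called higher and 0 called lower; the 1 was Sdha without pair C, at 0.59. Without the replicate block 0 and 0 members were called, with 4 at an unadjusted p under 0.05, and the medians were -0.09 for nuclear and -0.30 for mitochondrial members, so the block changed no call among members.

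Leaving out pair C turned Cox5a to -0.43, where leaving out pairs A and B gave 1.11 and 0.88; the polarized library of pair C holds its low count. The fitted median of nuclear members ran from -0.21 to 0.07 over the leave-outs and that of complex II from -0.04 to 0.21, both crossing 0 within the spread of the pairs. The median of mitochondrial members ran from -0.45 to -0.09, and its distance from the nuclear median from -0.24 to -0.15. In pair C the medians went to 0.00 for nuclear and -0.23 for mitochondrial members once the length trend was removed. Of the named members' values 47 changed sign within 1 standard error of 0 in both fits. A prior count of 0.5 left every pair median of the 2 genomes within 0.01. Over all genes the number called depended on the pairs: 8 higher and 24 lower in the full fit, 500 and 518 without pair C, and 0 and 0 without the block. Depth limits low members such as Atp5s and Atp5g1, with 55 and 60 counts in all.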
